A study of Rattus norvegicus with 3 samples.

Results

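The genes described here are the cyclins and cyclin-dependent kinases (CDKs) that carry a cell through G1 and into S phase, together with 2 transcription regulators of that step, E2f1 and Mybl2. Members were chosen by name, as the non-control probes whose gene name in the array files was Ccnd1, Ccnd2, Ccnd3, Ccne1, Ccne2, Cdk2, Cdk4, Cdk6, E2f1 or Mybl2. All 10 genes were on the array, which carried 26115 gene names in all, and they were read by 12 probes and 31 spots per array.

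The cells were ROS17/2.8, a clonal rat osteosarcoma line with properties of osteoblasts, the bone-forming cells. Polyphosphate was present for 24 h at 1 mg/ml in the culture read by the high dose array and at 0.01 mg/ml in that read by the low dose array, and the control array read a culture with none of it, for which no time is stated. Polyphosphate is a linear chain of phosphate units. All 3 cultures were confluent and stood in mineralization medium, that is growth medium with an ascorbate phosphate and β-glycerophosphate, so these agents were shared with the control. Each group holds 1 array of 1 cell line, so the spread between cultures is unknown, no test was made and no p-value is given.

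In G1, D-type cyclins bind CDK4 or CDK6 and E-type cyclins bind CDK2, and these kinases phosphorylate the retinoblastoma protein and its relatives, the pocket proteins. Phosphorylation releases E2F transcription factors, which switch on genes for DNA synthesis, among them the gene of cyclin E itself. Mybl2 encodes B-Myb, a factor that is itself an E2F target and that works with the MuvB complex on genes of late S phase and mitosis. In bone cells, proliferation is known to decline as matrix maturation and mineralization set in.

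The finding turns on 2 genes, Ccne1 and Mybl2, so the ends of their probes are shown, each as the last 30 bases of a 60-base probe, 5′ to 3′, with the polyadenylation signal AATAAA in capitals where it was found. The Ccne1 probe lies at chr1:90568197-90568256 on the minus strand of rn4, the build of the array files. Mybl2 was read by a downstream probe at chr3:153954267-153954323 and an upstream probe at chr3:153952175-153952234, both on the plus strand of rn4. The files place these probes at positions 3653 and 2075 of the transcript.
Ccne1: gtctatcaatttttAATAAAgataatgcta
Mybl2 downstream: agttgacAATAAAgagtagcaaattgttgt
Mybl2 upstream: ggcttcctacaggccaaacccgagaaggtg
AATAAA occurred in the Ccne1 probe and in the downstream Mybl2 probe and in none of the other 10 probes.

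Promoters were available for 5 of the 10 genes (Ccnd3, Ccne1, Cdk2, Cdk4 and Mybl2), as the 250 bases before the gene start from RefSeq on build GRCr8. The promoters of Mybl2 (chr3:172124555-172124804, plus strand) and Ccne1 (chr1:99927910-99928159, minus strand) are printed because these genes stood lowest at the high dose. Cdk4 (chr7:64771203-64771452, plus strand) is printed beside them as a gene whose ratios lay within 2 spot errors of 0 under the percentile scaling. Capitals mark GGCGGGA or its reverse complement TCCCGCC, a core found in many E2F sites, and CACGTG, the E-box bound by MYC and related factors.
Mybl2: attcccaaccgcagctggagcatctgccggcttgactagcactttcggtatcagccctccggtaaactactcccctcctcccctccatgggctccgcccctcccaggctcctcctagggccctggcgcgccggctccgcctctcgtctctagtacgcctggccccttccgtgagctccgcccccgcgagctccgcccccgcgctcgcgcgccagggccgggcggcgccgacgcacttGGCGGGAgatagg
Ccne1: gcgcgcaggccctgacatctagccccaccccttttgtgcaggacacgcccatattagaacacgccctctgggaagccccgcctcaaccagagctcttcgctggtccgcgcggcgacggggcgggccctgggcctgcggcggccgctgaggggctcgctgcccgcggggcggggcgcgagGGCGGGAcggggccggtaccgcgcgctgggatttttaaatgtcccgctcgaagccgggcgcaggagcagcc
Cdk4: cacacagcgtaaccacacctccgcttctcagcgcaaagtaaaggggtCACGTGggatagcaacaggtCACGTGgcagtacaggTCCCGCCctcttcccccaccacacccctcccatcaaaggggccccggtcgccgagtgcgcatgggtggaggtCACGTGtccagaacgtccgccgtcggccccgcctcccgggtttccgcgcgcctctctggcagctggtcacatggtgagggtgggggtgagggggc
GGCGGGA occurred once in each of the 5 promoters, on one strand or the other, and in 9.04% of all 33469 rat promoters of the same length. It began 13 bases before the start in Mybl2, 71 in Ccne1, 72 in Ccnd3, 156 in Cdk2 and 167 in Cdk4. The longer E2F forms TTTCCCGC, TTTCGCGC, TTTGCCGC and TTTGGCGC, which occur in 0.813%, 0.248%, 0.32% and 0.412% of all promoters, were in none of the 5. CACGTG was present 3 times in the Cdk4 promoter, was absent from the other 4 windows and occurred in 5.59% of all promoters. The motifs were picked after these letters had been seen, both strands were searched, none of the motifs overlapped another in these promoters, and a match is a description of the letters only. GGCGGGA stood in the Cdk4 promoter as well as in those of Ccne1 and Mybl2, so its presence did not separate the genes that were lower from those that were not.

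Levels were read as spot intensities, and each log2 ratio was taken after dividing by the 75th percentile of the array, which was 937 in high dose cells, 964 in low dose cells and 926 in control cells. In that order of arrays, 55.9%, 56.6% and 57.2% of 30367 probes were well above background. The error given after each ratio is a spot error, the standard error that repeat spots of probes at that brightness give, and it holds the measurement on the array but no difference between cultures or labellings. Signals of different probes depend on the probe, so no gene's signal is set against another's. The array also carries 10 probes for spike-in RNA, and the 8 that were well above background averaged a log2 ratio of -0.15 (SD 0.02) for the high dose against control, -0.16 (SD 0.05) for the low dose against control and 0.00 (SD 0.03) between the doses. Centring on them raises every ratio against control by that amount, and the all-gene medians then stand at 0.15 and 0.16, against -0.01 and 0.00 by the percentile. Signs against control are therefore given relative to the array's other genes, and the comparison of the doses does not depend on this choice.

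As to the cells, 10 of 10 osteoblast markers, among them Runx2, Sp7, Alpl, Ibsp and Spp1, were well above background on every array. Of the 5 markers looked at for each other cell type, 2 for chondrocytes, 1 for adipocytes, 2 for skeletal muscle, 3 for endothelium and 1 for epithelium were well above background on every array. So were 3 of the 5 leukocyte and osteoclast markers, Cd68, Acp5 and Csf1r. Ctsk, an osteoclast protease gene, was so on the control array alone and Ptprc, the pan-leukocyte marker, on no array. The summed control signal of each of these 5-marker sets was at most 421, below that array's 75th percentile of 926.

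At the high dose against control, the genes of the G1 machinery stood slightly low together, with Ccne1 and Mybl2 furthest from 0. All 9 measured genes had a log2 ratio below 0, with a median of -0.15 and a range from -0.39 to -0.03, beside a median of -0.01 over all 14503 genes, of which 52.1% were below 0. Ccnd1, Ccne1, Cdk2, E2f1 and Mybl2, 5 of the 9, were lower beyond 2 spot errors and 0 were higher, while 12.8% of all genes were lower by that measure and 10.7% higher. Ccne1 and Mybl2 were at least 1.2-fold lower, against 7.87% of all genes, and no member was 2-fold apart, against 0.0552% of all genes that were 2-fold lower. For Ccnd1, Ccnd3, Ccne1, E2f1 and Mybl2 every high dose spot, scaled by the array, lay below every control spot of the same probe, which held for 25.9% of the 8727 genes with repeat spots. Bright genes have small errors and 7 of the 9 were at or above the median level. Among these 7, 5 were lower beyond 2 errors, and the share over the 7252 genes of that brightness was 16.3%, with 2.54% at least 1.2-fold lower. Centred on the spike-ins, 4 of the 9 genes (Ccne1, Cdk2, E2f1 and Mybl2) were below 0 and 5 above, with a median of 0.0053, and beyond 2 spot errors Ccne1 and Mybl2 were lower and Cdk4 was higher. With normexp background correction Ccne1, Cdk2 and Mybl2 were lower beyond 2 spot errors, and Ccnd1 and E2f1 were not.

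**Figure D1:**
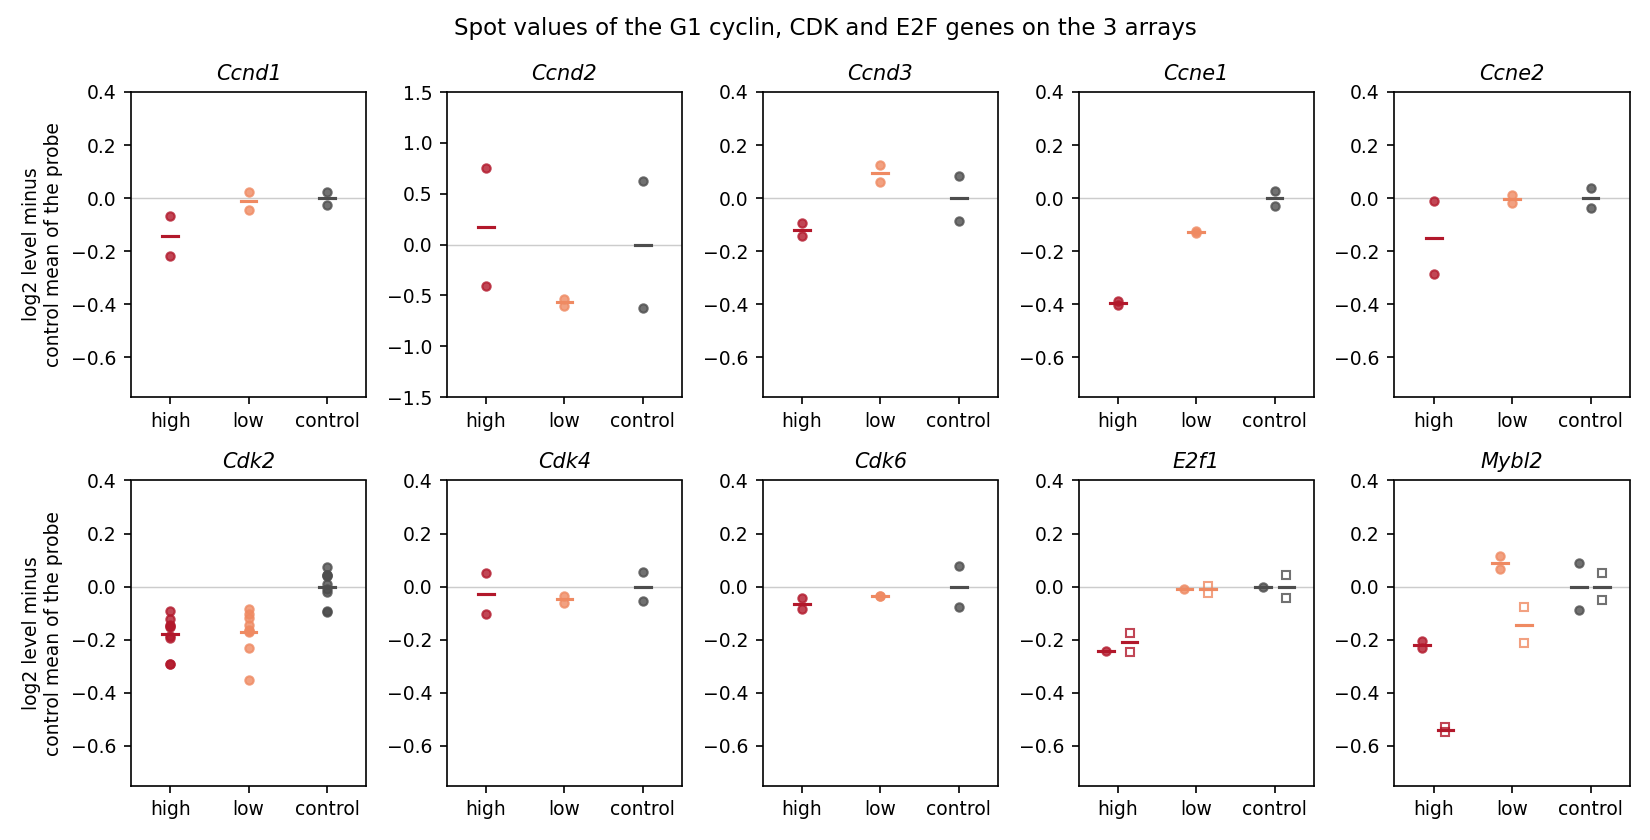
Log2 level of each spot, scaled by the array, minus the control mean of its probe, for the 10 genes on the high dose, low dose and control arrays (left to right, 1 array each), with 1 point per spot and a bar at the mean; open squares are the downstream probes of E2f1 and Mybl2, and the Ccnd2 panel has a wider axis. The Ccne1 and Mybl2 spots of the high dose lie below all spots of the same probe on the other arrays, and the Ccnd2 probe was not well above background.

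Among the D-type cyclins, which couple growth signals to the cycle, Ccnd1 and Ccnd3 were measured and Ccnd2 was not. Ccnd1, which encodes cyclin D1, read 7524 and 6779 in high dose cells, 8247 and 7885 in low dose cells and 7942 and 7673 in control cells. Both high dose spots were below every spot of the other arrays, and those of the low dose and control overlapped. The log2 ratios were -0.14 ± 0.05 for the high dose against control, -0.01 ± 0.05 for the low dose against control and -0.13 ± 0.05 for the high against the low dose. The first of these stood at 0.0097 when centred on the spike-ins. Its probe lies at chr1:205361630-205361689 on the minus strand of rn4.

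Ccnd3, which encodes cyclin D3, gave 1338 and 1384 in high dose cells, 1588 and 1658 in low dose cells and 1379 and 1550 in control cells. The high dose was lowest once the array scale was taken into account and the low dose and control spots overlapped on that scale. It was lower at the high than at the low dose, by -0.21 ± 0.06 on the log2 scale. Against control it stood at -0.12 ± 0.06 for the high dose and 0.09 ± 0.06 for the low dose, each within 2 spot errors. Centred on the spike-ins, these ratios were 0.03 ± 0.06 and 0.25 ± 0.06, the second beyond 2 spot errors. Ccnd2, which encodes cyclin D2, had spots of 12.7 and 5.71 in high dose cells, 5.11 and 5.37 in low dose cells and 4.83 and 11.5 in control cells. None of these arrays had its probe well above background, so no fold is given. The files give no coordinates for the Ccnd3 probe and place that of Ccnd2 at chr4:163535032-163541856 on the minus strand of rn4.

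The E-type cyclins activate CDK2 at the G1 to S transition. Ccne1, which encodes cyclin E1, read 2141 and 2165 in high dose cells, 2661 and 2673 in low dose cells and 2854 and 2746 in control cells, and on the common scale the 3 arrays did not overlap, with the high dose lowest and the control highest. The low dose stood at -0.13 ± 0.06 against control, and the high dose at -0.27 ± 0.06 against the low dose. For the high dose against control Ccne1 was 1.31-fold lower, and 2.98% of all genes had a ratio as low or lower. Centred on the spike-ins, Ccne1 stood at -0.24 for high against control and 0.031 for low against control, so that the low dose sign turned.

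Ccne2, which encodes cyclin E2, was dim, with spots of 181 and 149.6 in high dose cells, 185 and 189 in low dose cells and 185 and 176 in control cells. Once scaled by the array, spots of all 3 arrays overlapped. Its ratio of -0.15 ± 0.12 for the high dose against control lay within 2 spot errors, and its ratios of 0.00 ± 0.12 for the low dose against control and -0.15 ± 0.12 between the doses did so too. Its probe spans 1541 bases of chr5:25039349-25040889 (plus strand, rn4) although it is 60 bases long.

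Of the kinases, Cdk2, the partner of cyclins E and A, differed from control at both doses, and Cdk4 and Cdk6, the partners of cyclin D, differed at neither beyond 2 spot errors. Cdk2 had 10 spots per array, of which the 9 never marked as outliers had a lowest, median and highest signal of 587, 647 and 674 in high dose cells, 579, 661 and 698 in low dose cells and 665, 716 and 749 in control cells. Scaled by the array, all 9 spots were lower than the control's spot at the same position at each dose, although the ranges overlapped. The log2 ratios were -0.18 ± 0.03 for high against control and -0.17 ± 0.03 for low against control, and the ratio of high to low was -0.01 ± 0.03. Centred on the spike-ins, both Cdk2 ratios were nearly 0, at -0.03 and -0.01. The probe lies at chr7:2000436-2000495 on the minus strand of rn4.

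Cdk4 read 16154 and 14506 in high dose cells, 15651 and 15379.8 in low dose cells and 16016 and 14838 in control cells. The spots of the 3 arrays overlapped, and against control the ratio was -0.03 ± 0.05 for the high dose and -0.05 ± 0.05 for the low dose, with 0.02 ± 0.05 between the doses. With spike-in centring Cdk4 stood above control beyond 2 spot errors at both doses, by 0.13 ± 0.05 for the high dose and 0.11 ± 0.05 for the low dose. Cdk6 gave 332 and 323 in high dose cells, 344 and 344 in low dose cells and 357 and 321 in control cells, with ratios of -0.06 ± 0.09, -0.04 ± 0.09 and -0.03 ± 0.09 for high against control, low against control and high against low. The Cdk4 probe lies at chr7:67017293-67017352 on the plus strand and the Cdk6 probe at chr4:27362858-27362917 on the minus strand of rn4. For Cdk6 an interval of 2 spot errors is wide enough to hold a difference of the size seen in Cdk2.

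**Figure D2:**
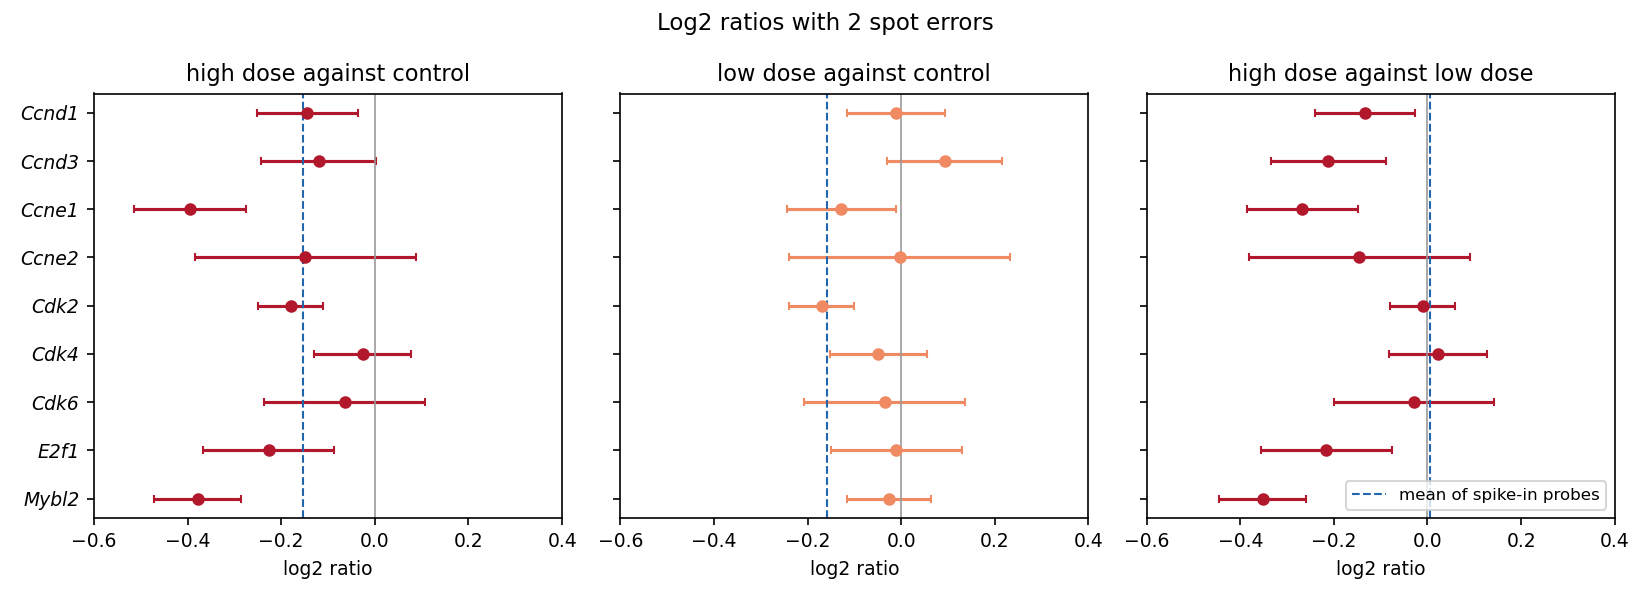
Log2 ratios of the 9 measured genes for the 3 comparisons, with bars of 2 spot errors, a grey line at 0 and a dashed line at the mean of the spike-in probes, the zero that spike-in centring would give. Ccne1 and Mybl2 lie below both lines for the high dose against control and against the low dose, whereas Cdk2 lies near the spike-in line against control at both doses.

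E2f1, an activator of S phase genes, was read by 2 probes. The downstream probe, which has 2 spots, gave 3151 and 2997 in high dose cells, 3666 and 3599 in low dose cells and 3408 and 3625 in control cells. The upstream probe has 1 spot, and read 259.7 in high dose cells, 314 in low dose cells and 304 in control cells. On both probes the high dose was lowest and the low dose and control overlapped or stood close together. Their high dose ratios against control differed by 0.03 ± 0.14, less than the error, for probes 949 bases apart on the transcript. The upstream probe lies at chr3:145033680-145033739 and the downstream one at chr3:145032731-145032790, on the minus strand of rn4. Averaged over the probes, E2f1 stood at -0.23 ± 0.07 for the high dose against control, -0.01 ± 0.07 for the low dose against control and -0.22 ± 0.07 for the high against the low dose. Spike-in centring left -0.07 for the high dose against control, within 2 spot errors of 0.

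Mybl2 was the member that differed most between the doses. On the downstream probe it read 1716 and 1694 in high dose cells, 2419 and 2202 in low dose cells and 2535 and 2366 in control cells, and on the upstream probe 701 and 713, 885 and 916, and 764 and 865 in the same order of arrays. Every high dose spot was below every low dose and control spot of its probe. Averaged over the probes, Mybl2 stood at -0.38 ± 0.05 for the high dose against control, 1.30-fold lower, at -0.03 ± 0.04 for low against control and at -0.35 ± 0.05 for the high against the low dose, 1.28-fold lower. With spike-in centring the mean of the probes stood at -0.22 for high against control, made up of -0.38 ± 0.06 on the downstream probe and -0.06 ± 0.07 on the upstream probe, so that the downstream probe alone was lower beyond 2 spot errors.

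The probes of Mybl2 gave unequal sizes against control. For the high dose the downstream probe stood at -0.54 ± 0.06 and the upstream probe at -0.22 ± 0.07, a difference of -0.32 ± 0.09. For the low dose they stood at -0.14 ± 0.06 and 0.09 ± 0.07, a difference of -0.23 ± 0.09, so that the mean near 0 hides ratios of opposite sign. Between the doses the probes gave -0.40 ± 0.06 and -0.31 ± 0.07, and their difference of -0.09 ± 0.09 was within the error. The cause of the gap against control, which the high and low dose share, was not tested.

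At the low dose against control, 8 of the 9 genes were below 0 and the median was -0.03, with 49.6% of all 14629 genes below 0. Ccne1 and Cdk2 were lower beyond 2 spot errors, against 4.56% of all genes, and 0 were higher, against 4.27%. None of the 9 was at least 1.2-fold lower, against 5.08% of all genes, or 2-fold lower, against 0.0479%. Over genes of at least median level, the shares lower beyond 2 spot errors and at least 1.2-fold lower were 4.61% and 0.519%. Ccne1 alone of the 9 had every low dose spot below every control spot, against 15.5% of genes with repeat spots. Apart from these 2 genes, the ratios lay between -0.05 and 0.09. Spike-in centring turned the direction: 8 of the 9 were then above 0 and 5 (Ccnd1, Ccnd3, Cdk4, E2f1 and Mybl2) were higher beyond 2 spot errors. With normexp background correction, or with the deposited series table, Cdk2 was lower beyond 2 spot errors and Ccne1 was not.

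The high dose against the low dose gave 8 of 9 genes below 0 with a median of -0.15, and 53% of all 14488 genes were below 0. Lower beyond 2 spot errors were Ccnd1, Ccnd3, Ccne1, E2f1 and Mybl2, against 10.6% of all genes, and 0 were higher, against 9.62%. Ccne1 and Mybl2 were at least 1.2-fold lower, against 6.12% of all genes, and none was 2-fold lower, against 0.0276%. Over genes of at least median level, the shares by these rules were 14.6% and 1.66%. For 6 of the 9 (the same 5 and Cdk6) every high dose spot lay below every low dose spot, against 24.3% of genes with repeat spots. With normexp background correction Mybl2 alone was lower beyond 2 spot errors, and Ccne1 stood at -0.28 ± 0.15. Ccne1 was no longer 1.2-fold lower under 2 other scalings, at -0.26 with the percentile over detected probes and -0.25 with quantile normalization. A ratio between the doses as low as that of Mybl2 was seen in 3.04% of all genes, and one as low as that of Ccne1 in 5.98%. The dose comparison shares the high dose array with the comparison against control, so the values of the 2 are not independent. Cdk2, Cdk4 and Cdk6 stood within 0.03 of 0 between the doses, and the genes lower beyond 2 spot errors were cyclins and the 2 transcription regulators. The cyclin gene Ccne2, at -0.15 ± 0.12, was not among them. For Cdk6, at -0.03 ± 0.09, an interval of 2 spot errors holds the ratio of Ccnd1, -0.13.

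**Figure D3:**
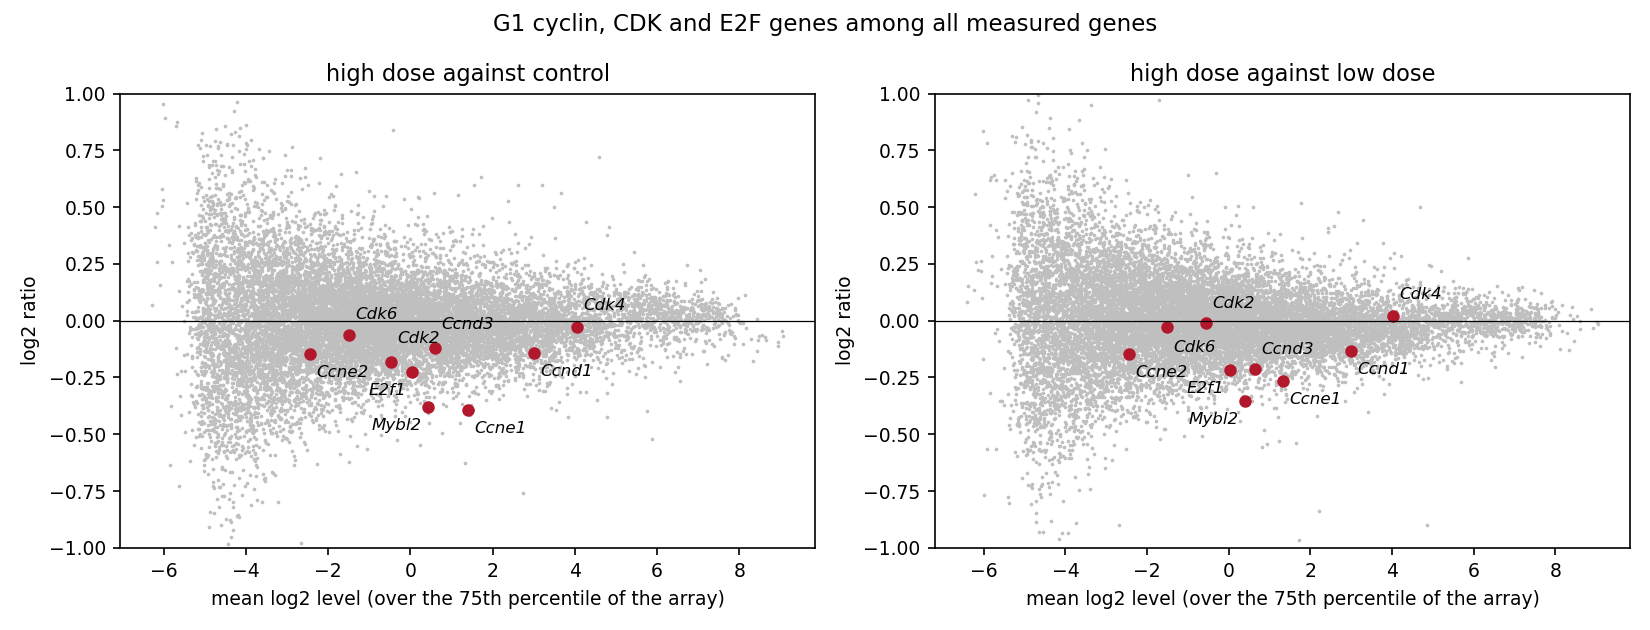
Log2 ratio against mean log2 level for all measured genes (grey) and the 9 measured genes (red, named), for the high dose against control and against the low dose, with 17 and 11 genes beyond the vertical range. Ccne1 and Mybl2 lie in the lower edge of the cloud at their level, and Cdk4 lies near 0, and the ratios against control stand 0.15 higher when centred on the spike-ins.

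The wider pathway was set beside these genes through lists that were chosen with earlier results of these data known, so the counts describe the lists and test nothing. Percentages of all genes beyond 2 spot errors for the same comparison are those given above. Among the CDK inhibitors, 5 of 7 were measured and the median for the high dose against control was -0.05. None was lower beyond 2 spot errors and Cdkn1b, which encodes p27, was higher by 0.33 ± 0.03, with 893 in high dose cells, 770.3 in low dose cells and 704 in control cells. For Cdkn1b the high dose also stood 0.25 ± 0.03 above the low dose, and the low dose 0.07 ± 0.03 above control. Of the 3 pocket proteins, Rb1, the retinoblastoma gene, was higher at the high dose by 0.18 ± 0.08 against control and by 0.23 ± 0.08 against the low dose, and Rbl1, at 0.30 ± 0.22 against control, was within 2 spot errors.

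Of the other E2F and DP genes, 7 of 9 were measured, with a median of -0.16 for the high dose against control. E2f8, a repressor, was lower (-0.20 ± 0.09), E2f5 was higher (0.06 ± 0.03), and E2f6 and E2f7 at -0.31 ± 0.22 and -0.29 ± 0.24 were too dim for the error to separate them from 0. In the list of the CDK-activating kinase, the CDC25 phosphatases and the kinase gene Wee1, 2 of 7 were lower beyond 2 spot errors and 1 was higher. Cdc25a, a phosphatase that activates CDK2, stood at -0.32 ± 0.06 and read 1119 in high dose cells, 1379.8 in low dose cells and 1377 in control cells. Cdc25c, which activates CDK1, stood at -0.32 ± 0.15, and Cdk7, the kinase of the activating complex, at 0.12 ± 0.06. Of the cyclin degradation list, with 8 of 9 measured, only Skp1, an adaptor of the SCF ubiquitin ligase, was beyond 2 spot errors against control, at -0.15 ± 0.06. The spike-in mean for the high dose against control was -0.15, level with Skp1. E2f8 and Cdc25c lay within 2 spot errors of that mean, and Cdc25a lay below it beyond 2 spot errors.

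The MuvB complex and other Myb genes, 7 of 8 measured, held the paralogue of Mybl2 in the opposite direction: Mybl1, which encodes A-Myb, stood at 0.38 ± 0.11 for the high dose against control and at 0.22 ± 0.11 against the low dose. Foxm1, which drives mitotic genes together with B-Myb and MuvB, stood at -0.20 ± 0.07 against control. The later cyclins and Cdk1 had a median of -0.07 for the high dose against control. Ccnb1 (-0.15 ± 0.06), Ccnf (-0.19 ± 0.08) and Cdk1 (-0.07 ± 0.02), 3 of 5 measured, were lower beyond 2 spot errors. The spike-in mean for that comparison was -0.15, with Cdk1 above it and Ccnb1 level with it. Foxm1 and Ccnf lay within 2 spot errors of that mean. The median of this list was -0.09 for the low dose against control and -0.05 between the doses. Ccnf was as low at the low dose, at -0.19 ± 0.08 against control, and stood at -0.0044 ± 0.077 between the doses. Among genes that raise cyclin D transcription, 8 of 8 measured, the median was -0.05 for the high dose against control. Myc (0.43 ± 0.03), Jun (0.21 ± 0.06) and Fosl1 (0.13 ± 0.06), 3 of the 8, were higher beyond 2 spot errors. Below 0 were 4, none beyond 2 spot errors, with Lef1 (-0.20 ± 0.36) and Egr1 (-0.18 ± 0.11) furthest. At the low dose against control Jun (0.13 ± 0.06) and Fosl1 (0.22 ± 0.06) were also higher beyond 2 spot errors. Egr1 was lower there (-0.26 ± 0.11), and Myc stood at 0.04 ± 0.03. Between the doses 7 were measured, with a median of -0.09, and Myc alone was higher beyond 2 spot errors, at 0.39 ± 0.03. Ctnnb1 and Yap1, 2 of the 7, were lower by that measure, each at -0.15 ± 0.07. Jun and Fosl1 lay within 2 spot errors.

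The 20 other E2F target genes, most of them with roles in DNA synthesis and its licensing, had a median of -0.21 for the high dose against control, -0.02 for the low dose against control and -0.19 for the high against the low dose. All 20 were below 0 in the first, and 14 were lower beyond 2 spot errors and none higher. Between the doses 12 were lower by that measure. Furthest from 0 against control were Cdt1, which licenses replication origins, Uhrf1, which maintains DNA methylation, and Mcm5, a helicase subunit gene. Their ratios of high to low dose were -0.44 ± 0.18, -0.42 ± 0.11 and -0.29 ± 0.07. Ccna2 and Cdc25a are in this list and in the later cyclin and CDC25 lists, so their values count in both. With spike-in centring the medians against control were raised by 0.15 and 0.16 like those of all genes. The spike-in mean for the high dose against control was -0.15, and the ratios of this list ran from -0.54 to -0.02. Genes of the list above that mean then stood above 0, so the counts against control given here hold for the percentile scaling.

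**Figure D4:**
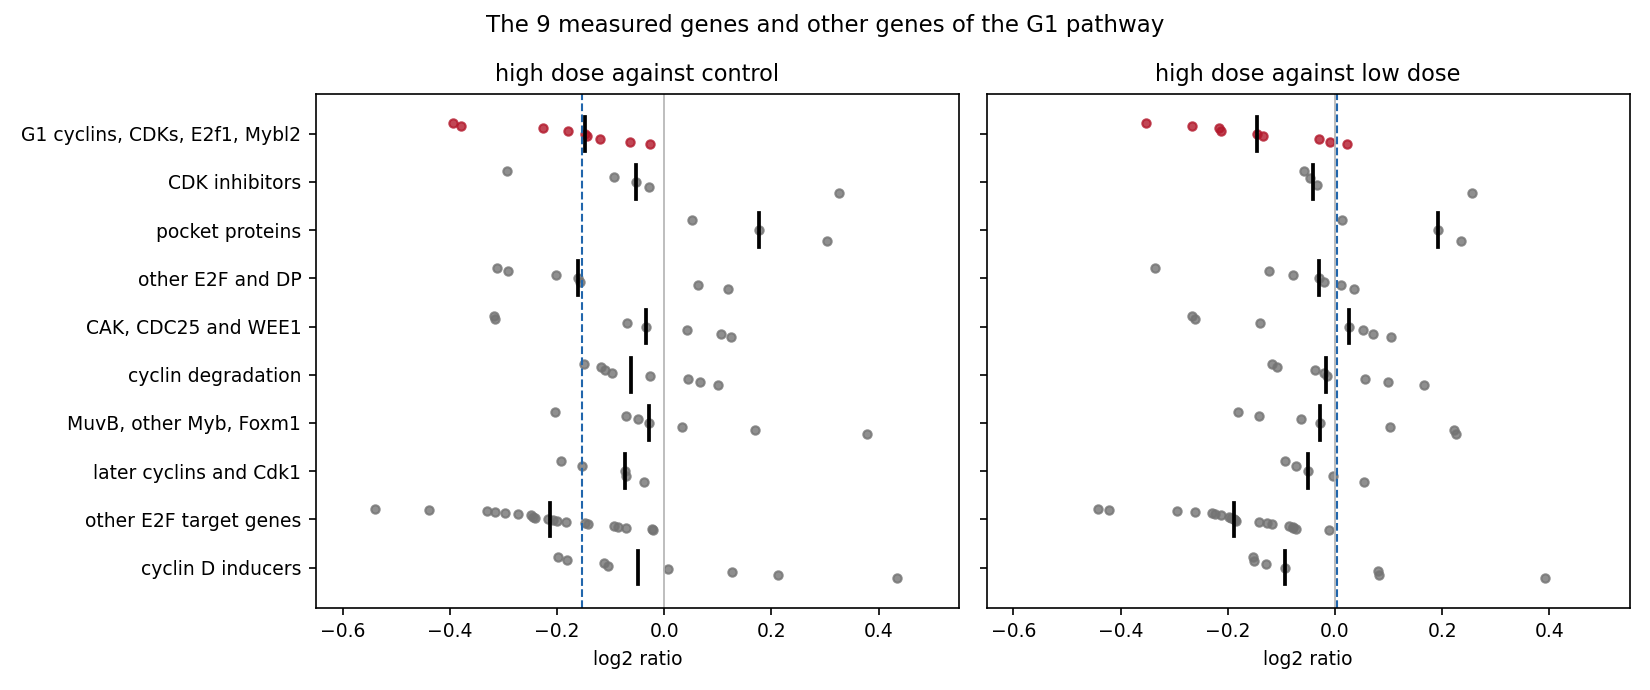
Log2 ratios of the 9 measured genes and of each pathway list for the high dose against control and against the low dose, with 1 point per gene, a tick at the median of each group and a dashed line at the mean of the spike-in probes. The E2F target genes and the G1 cyclin, CDK and E2F genes have their medians below 0, at -0.21 and -0.15 for high against control, while the 3 pocket proteins have theirs above it. Centred on the spike-ins the second of these medians is 0.0053.

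Markers of proliferating cells moved with these genes. All 5 markers were below 0 for the high dose against control, with a median of -0.14 and 4 of 5 lower beyond 2 spot errors. The spike-in mean for that comparison was -0.15, close to this median. Between the doses the median was also -0.14, with 4 of 5 lower beyond 2 spot errors. For the low dose against control it was -0.0058. Summed signals of these markers, not scaled by the array, were 15838 in high dose cells, 17605 in low dose cells and 16723 in control cells. The osteoblast markers had the same median of -0.14 for the high dose against control, with 3 of 10 lower beyond 2 spot errors and 1, Spp1 at 0.26 ± 0.02, higher. Between the doses the osteoblast markers also had a median of -0.14, with 5 of 10 lower beyond 2 spot errors and 1, again Spp1, higher. At the low dose against control their median was 0.0068. Their summed signals, likewise unscaled, were 119591 in high dose cells, 131348 in low dose cells and 123871 in control cells. Most of each sum came from 1 probe, that of Col1a2, with 82900.3, 92307 and 86781 on the same arrays. Their part in the results above was not tested. In a whole culture, fewer cells in the cycle and less RNA per cell cannot be told apart.

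Genes with the pattern most like Ccne1 and Mybl2 over the 3 arrays were sought by the distance between ratios for the high and low dose against control, among 6539 genes. Closest to Ccne1 were Lratd1, Cdh15 and Bpifb3, with distances of 0.015, 0.018 and 0.019, and closest to Mybl2 were Chst11, Baalc and Vom1r30, with 0.0077, 0.011 and 0.015. With 3 arrays such a match rests on 2 ratios, and the spot errors of these genes, 0.15 to 0.25 for the high dose, are larger than the distances.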

How the data were processed

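RNA of 3 ROS17/2.8 cultures was read on 3 one-colour Agilent rat arrays, 1 array per group, taken from the treatment labels. Deposited scanner files hold the intensity of each spot, extracted with Agilent Feature Extraction 10.7.3.1, protocol GE1_107_Sep09, array design 028279, per the file headers, and probe coordinates refer to rn4. Per the file headers, the background of the processed signal was subtracted and spatial trends within an array removed, with no scaling between arrays. The deposited flags mark spots as well above background, as saturated or as outliers. The values of the deposited series table are a ratio of the processed signal to 1 constant per array (823, 849 and 823), with deviations of at most 0.000123%, and were used as an alternative; the sources used here do not state how the table was made.

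The log2 signal minus the array's 75th percentile was averaged over spots, then over probes well above background on both arrays; outlier spots were left out (352, 368 and 426 on the high dose, low dose and control array). Other genes' symbols were updated through RefSeq for 18438 probes. The spot error used repeat-spot SDs in 20 brightness bins and was tested on simulated data. The named genes are the 10 members, and up to 3 genes per list furthest from 0. E2f5, Fosl1, Egr1, Ctnnb1 and Yap1 were named in addition, after their values were seen, because they were beyond 2 spot errors. For Egr1 this held at the low dose against control, and for Ctnnb1 and Yap1 between the doses. Wee1 was named only to describe its list. The members, lists and motifs were chosen with earlier results of these data known. The number of arrays limits precision, and all arrays share 1 slide, where position and group cannot be told apart. Python used numpy 2.4.6 and pandas 2.3.3, and the normexp alternative used limma 3.58.1.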

Additional observations from a re-analysis of the deposited data

How the results depend on the processing

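Each group holds 1 array, so no array could be left out. No paired analysis was possible because each group holds 1 array. Centring on the spike-ins gave a median over the 9 genes of 0.0053 for the high dose against control, with 3 genes beyond 2 spot errors (2 lower, 1 higher) and 0 at least 1.2-fold apart, and a median of 0.13 for the low dose against control with 5 beyond 2 spot errors, all higher. Ccnd1 then stood at 0.0097 for the high dose and Ccne1 at 0.031 for the low dose against control. With the 75th percentile over probes well above background, or with quantile normalization, 1 gene (Mybl2) was at least 1.2-fold lower at the high than at the low dose. The deposited series table left 1 gene (Cdk2) beyond 2 spot errors at the low dose against control. Normexp background correction left 3 genes (Ccne1, Cdk2 and Mybl2) beyond 2 spot errors for the high dose against control, 1 (Cdk2) for the low dose against control and 1 (Mybl2) between the doses. Without the filter on dim probes, 1 gene (Ccnd2) was at least 1.2-fold apart at the low dose against control, where it was lower. Ccnd2 was then also at least 1.2-fold higher at the high than at the low dose, and both differences exceeded 2 spot errors. Taking the brightest probe put Mybl2 at -0.54 for the high dose and -0.14 for the low dose against control. The median between the doses lay between -0.16 and -0.12 in all 10 alternatives. Low signal limits what can be measured. Among probes with every spot well above background, repeat spots in the dimmest bin had an SD of 0.26 against 0.051 for the brightest. Over probes with at least 50% of spots well above background, the SD of the dimmest bin was 0.75. The Ccnd2 probe lay near background with no spot well above it, so neither SD covers it.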
